A study of Gallus gallus with 8 samples.

Results

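ETS1, TWIST1, SNAI1, ZEB1, ZEB2, MYCN, MYC and TGIF1 are transcription factors named for the epithelial-to-mesenchymal transition (EMT) of the neural crest. They were taken by gene name from a count table of chick cells, which held a single entry for each, so that 8 of 24356 genes are described. The question was whether cells labelled by an otic enhancer and cells labelled by an epibranchial enhancer differed in these factors. Each of the 8 genes passed the filter on low counts.

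Neural crest cells arise at the border of the neural plate as part of an epithelium, lose the adhesion that holds them there, and leave as migratory mesenchyme. Repressors of the SNAI and ZEB families bind E-boxes in the promoters of adhesion genes such as CDH1 (E-cadherin), TWIST factors bind similar sites as dimers with other basic helix-loop-helix (bHLH) proteins, and ETS1 takes part in crest delamination in the chick head. MYC and MYCN drive growth and hold crest progenitors in an undifferentiated state, and TGIF1 is a homeodomain repressor that damps the SMAD response to TGF-beta.

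Chick embryos were electroporated in ovo at the stages of 3 to 6 somite pairs (3 to 5 in the sample labels) with a plasmid in which the enhancer Lmx1aE1, active in the otic placode, or Sox3U3, active in the epibranchial territory, drives EGFP. Embryos were collected at 18 to 21 somite pairs, EGFP+ cells were sorted, and bulk RNA-seq was made from 2000 cells per library, in 4 Lmx1aE1-EGFP+ and 4 Sox3U3-EGFP+ libraries that the study calls biological replicates. The sources differ on whether whole heads or the dissected ear region were taken. Both groups carried a reporter plasmid, and no other treatment is named. The reporter marks whichever electroporated cells use the enhancer, and the number of embryos behind each library was not given in the sources used here.

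The libraries held between 6559872 and 45183366 counts, and each group had 2 libraries above and 2 below 15000000. The otic list (14 genes, among them LMX1A, SOX8 and SOX10) summed to between 1281 and 1521 CPM (counts scaled to a common library total) in the Lmx1aE1 libraries and to between 541 and 643 in the Sox3U3 libraries, although PAX2 (34.5 ± 2.28 against 85.6 ± 18.0 CPM, SD, n = 4 each), an early placode gene, was higher in Sox3U3. The epibranchial list (9 genes, among them GATA3, ISL1, TFAP2E and NELL1) ran the other way, from 120 to 139 CPM in Lmx1aE1 and from 400 to 464 in Sox3U3, with its neuronal gene NEUROG1 too low to be tested. Neural crest markers (14 genes) summed to between 1824 and 2163 CPM in Lmx1aE1 and between 521 and 685 in Sox3U3. Of these 14 genes, 7 lay past both thresholds used here (Benjamini-Hochberg adjusted p below 0.05 and a log2 fold change beyond 1.5 in either direction), all 7 higher in Lmx1aE1 (FOXD3, SOX10, TFAP2B, PAX7, LMO4, EDNRB and RXRG), and SOX9 alone was higher in Sox3U3 at the adjusted p (a log2 fold change of -0.52). At the adjusted p alone, 10 of the 14 were higher in Lmx1aE1. Among all genes tested, 0.712% were past both thresholds and 12.1% past the adjusted p in the direction of Lmx1aE1. In that of Sox3U3, 11.3% were past the adjusted p. SOX9 and SOX10 are also otic genes. SOX10 stood in both sums and made up much of the otic one, at 789 ± 110 CPM in Lmx1aE1 and 176.5 ± 24.3 in Sox3U3 (SD, n = 4 each). Without it the other 13 otic genes summed to between 572 and 629 CPM in Lmx1aE1 and between 362 and 435 in Sox3U3. The other 13 crest genes summed to between 1118 and 1244 and between 372 and 506. COL9A1 (162 ± 8.78 against 73.2 ± 14.1 CPM), DLX5 (132 ± 21.5 against 61.1 ± 16.5) and SOX8 (75.0 ± 17.1 against 20.3 ± 6.42) were the highest of these otic genes in Lmx1aE1 (SD, n = 4 each). At the adjusted p, 5 of the 13 otic genes tested, SOX10 included, were higher in Lmx1aE1, 2 in Sox3U3 and 6 in neither. The otic list thus did not move as a block. Levels below are CPM scaled by TMM factors, and fold changes are Lmx1aE1 over Sox3U3.

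Of the 8 factors, 2 were higher in the Lmx1aE1-EGFP+ cells past both thresholds, TWIST1 and ZEB2, and none was higher in the Sox3U3-EGFP+ cells (edgeR quasi-likelihood, p adjusted by Benjamini-Hochberg over 16861 genes). Among all genes tested, 0.712% were past both thresholds in the direction of Lmx1aE1 and 2.47% in that of Sox3U3, 3.18% in either. At the adjusted p alone, 5 of 8 were higher in Lmx1aE1 (ETS1, MYC and MYCN joined the first pair) and 0 in Sox3U3, against 12.1% and 11.3% of all genes (23.3% in either direction). SNAI1, ZEB1 and TGIF1 did not pass. In the direction of Sox3U3, 1 factor had an unadjusted p below 0.05 with edgeR (SNAI1), 0 with DESeq2 and 2 with limma-voom, and none passed the adjusted p with any of these tools. The median log2 fold change of the 8 genes was 0.94, beside -0.04 over all genes tested. In bulk libraries a lower level cannot be told apart as fewer cells of a type or as less RNA per cell, and the summed neural crest markers given above were also higher in Lmx1aE1. Their part in the result was not tested.

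**Figure D1:**
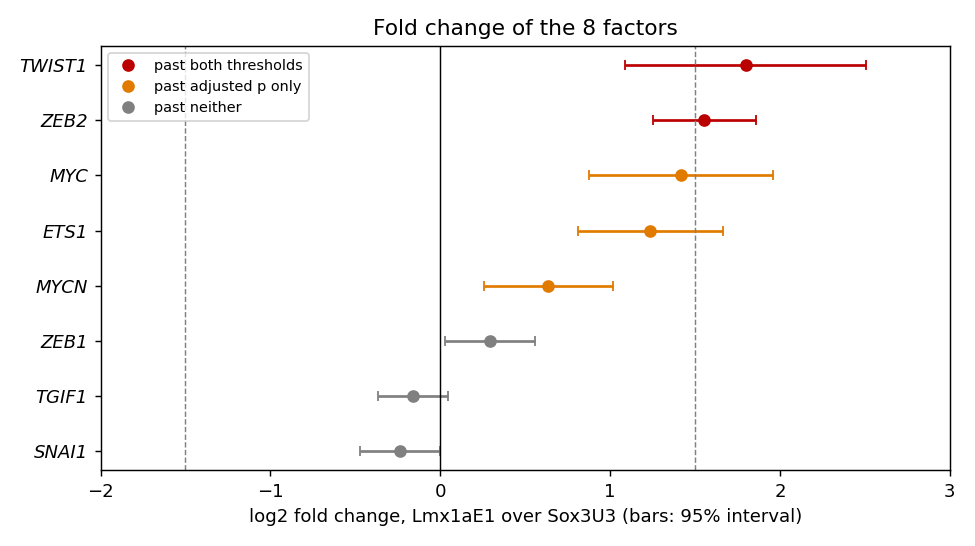
Log2 fold change, Lmx1aE1 over Sox3U3, of each of the 8 factors (points) with its 95% interval (bars) from the fit over all genes. Dashed lines stand at the fold threshold of 1.5 in either direction. TWIST1 and ZEB2 lie past it on the right, MYC, ETS1 and MYCN between it and 0, and the intervals of ZEB1, TGIF1 and SNAI1 lie near or across 0.

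TWIST1 (ENSGALG00000041640) encodes a bHLH factor of cranial crest mesenchyme. Its level in Lmx1aE1 libraries 1 to 4 was 47.7, 50.9, 27.0 and 19.9 CPM. In the Sox3U3 libraries 1 to 4 it was 7.92, 11.6, 14.5 and 7.59 CPM. The groups did not overlap, but Lmx1aE1 libraries 3 and 4 lay well below libraries 1 and 2 and close to the highest Sox3U3 library. The group means were 36.4 ± 15.2 and 10.4 ± 3.28 CPM (SD, n = 4 each), a ratio of 3.48. TWIST1 thus had the widest relative spread of the 8 in the Lmx1aE1 group, with a coefficient of variation of 41.9%. The log2 fold change of TWIST1 was 1.80 (SE 0.32, 95% interval 1.09 to 2.51, edgeR quasi-likelihood, Benjamini-Hochberg adjusted p = 0.00219).

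ZEB2 (ENSGALG00000040465), a zinc finger homeobox repressor of CDH1 whose loss in humans disturbs crest derivatives, was even within the Lmx1aE1 group. It stood at 201, 204, 195 and 211 CPM in Lmx1aE1 libraries 1 to 4. In the Sox3U3 libraries 1 to 4 it stood at 70.6, 92.2, 52.0 and 60.1 CPM. Every Lmx1aE1 library was far above every Sox3U3 library, and the Lmx1aE1 values varied by only 3.23% (coefficient of variation). The means were 203 ± 6.54 and 68.7 ± 17.4 CPM (SD, n = 4 each), a ratio of 2.94. The log2 fold change was 1.56 (SE 0.14, 95% interval 1.25 to 1.86, edgeR quasi-likelihood, Benjamini-Hochberg adjusted p = 1.34e-06), just outside the fold threshold. It was 1.45, inside that threshold, without Sox3U3 library 3.

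ETS1 (ENSGALG00000001143), the crest delamination factor of the ETS family, was at 61.8, 48.04, 47.3 and 53.1 CPM in Lmx1aE1 libraries 1 to 4. In Sox3U3 libraries 1 to 4 it was at 18.6, 20.2, 34.6 and 16.4 CPM. The groups did not overlap, and Sox3U3 library 3 stood above the other Sox3U3 libraries. The means were 52.6 ± 6.69 and 22.4 ± 8.24 CPM (SD, n = 4 each). The log2 fold change of 1.24 (SE 0.20, 95% interval 0.81 to 1.66) passed the adjusted p (0.000371, edgeR quasi-likelihood, Benjamini-Hochberg) and not the fold threshold. Without Sox3U3 library 3 it was 1.52 and past both.

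MYC (ENSGALG00000033631), a bHLH leucine zipper factor for growth and cell division, was at 33.9, 23.8, 21.6 and 14.9 CPM in Lmx1aE1 libraries 1 to 4. In Sox3U3 libraries 1 to 4 it was at 8.71, 11.3, 5.36 and 9.21 CPM. All Lmx1aE1 libraries were the higher ones, though Lmx1aE1 library 4 came close to Sox3U3 library 2. The means were 23.5 ± 7.88 and 8.66 ± 2.48 CPM (SD, n = 4 each). MYC had a log2 fold change of 1.42 (SE 0.26, 95% interval 0.88 to 1.96, edgeR quasi-likelihood, Benjamini-Hochberg adjusted p = 0.000855). It was past both thresholds without Lmx1aE1 library 4, at 1.59, or without Sox3U3 library 2, at 1.57.

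MYCN (ENSGALG00000016462), the MYC paralogue of neural progenitors, differed less. Its level was 18.6, 16.8, 17.0 and 13.7 CPM in Lmx1aE1 libraries 1 to 4, and 10.9, 10.2, 12.3 and 9.11 CPM in Sox3U3 libraries 1 to 4. The groups did not overlap, and Lmx1aE1 library 4 and Sox3U3 library 3 were the nearest values. The means were 16.5 ± 2.05 and 10.6 ± 1.33 CPM (SD, n = 4 each). For MYCN the log2 fold change was 0.63 (SE 0.18, 95% interval 0.25 to 1.01, edgeR quasi-likelihood, Benjamini-Hochberg adjusted p = 0.0167). By the same test the adjusted p was 0.0561 without Lmx1aE1 library 1 and 0.0542 without Lmx1aE1 library 3.

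ZEB1 (ENSGALG00000007260), the paralogue of ZEB2 with the same kind of target sites, was at 58.7, 53.6, 50.8 and 49.2 CPM in Lmx1aE1 libraries 1 to 4. In Sox3U3 libraries 1 to 4 it was at 37.5, 49.0, 41.9 and 45.0 CPM. The lowest Lmx1aE1 and the highest Sox3U3 value nearly met. The log2 fold change was 0.29 (SE 0.13, 95% interval 0.025 to 0.56, edgeR quasi-likelihood, Benjamini-Hochberg adjusted p = 0.107). With limma-voom and sample quality weights the adjusted p was 0.0377.

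SNAI1 (ENSGALG00000008018), a zinc finger repressor of CDH1, was at 82.1, 73.3, 68.5 and 70.2 CPM in Lmx1aE1 libraries 1 to 4. In Sox3U3 libraries 1 to 4 it was at 88.0, 97.5, 82.0 and 78.6 CPM. The groups overlapped, with Lmx1aE1 library 1 inside the Sox3U3 range. The log2 fold change was -0.24 (SE 0.11, 95% interval -0.48 to -0.00084, edgeR quasi-likelihood, Benjamini-Hochberg adjusted p = 0.140). The sign was thus opposite to that of TWIST1 and ZEB2, with an interval that ended just below 0. Of the related zinc fingers, SCRT1 and SCRT2, which act in neurons, were below the filter. SNAI2, the SNAI gene of premigratory crest in the chick, was not analysed here.

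TGIF1 (ENSGALG00000014795), the SMAD corepressor, was at 174, 169, 164 and 173 CPM in Lmx1aE1 libraries 1 to 4. In Sox3U3 libraries 1 to 4 it was at 209, 198, 164 and 189 CPM. Sox3U3 library 3 lay just under the lowest Lmx1aE1 library, and the other Sox3U3 libraries lay above. TGIF1 had a log2 fold change of -0.16 (SE 0.10, 95% interval -0.37 to 0.044, edgeR quasi-likelihood, Benjamini-Hochberg adjusted p = 0.252).

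**Figure D2:**
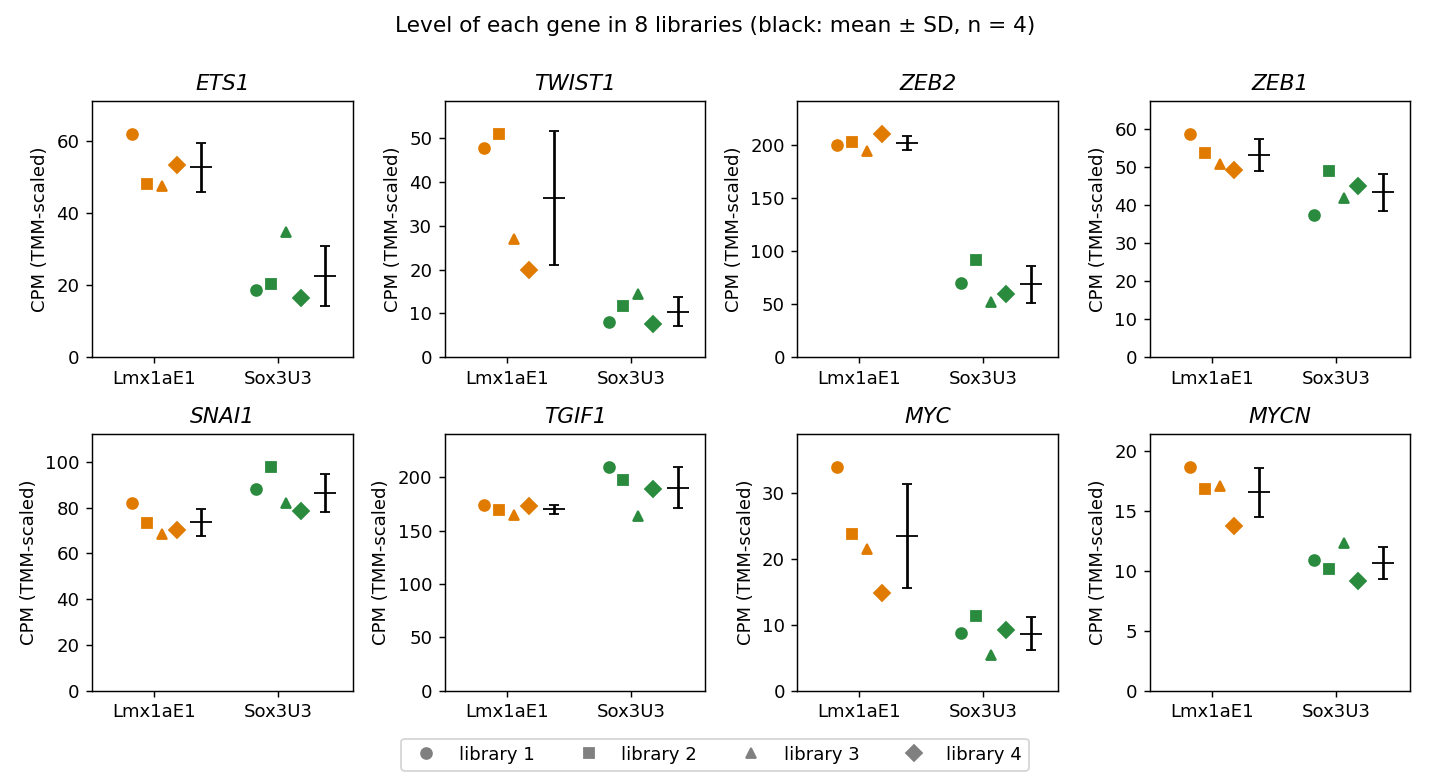
Level of each factor in CPM (vertical axes, each starting at 0) in the 4 Lmx1aE1 (orange) and 4 Sox3U3 (green) libraries, with symbols for library number and black bars for the mean ± SD. ZEB2 shows a wide gap, TWIST1 and MYC spread widely within Lmx1aE1, and SNAI1 and TGIF1 overlap between the groups.

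For 6 of the 8 factors no Lmx1aE1 library overlapped a Sox3U3 library, against 26.0% of all genes tested. For each of these 6 the two-sided exact permutation test over the libraries gave p = 0.0286, the smallest that 4 against 4 libraries allow. That p, which was not adjusted, follows from the lack of overlap and is no separate support. ZEB1 had it too, beside an adjusted p of 0.107 with edgeR quasi-likelihood. The permutation test gave p = 0.0857 for SNAI1 and p = 0.143 for TGIF1.

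Because Lmx1aE1 libraries 1 and 2 and Sox3U3 libraries 3 and 4 were the shallower ones, the factors were also fitted within each depth class, 2 libraries against 2. TWIST1 had a log2 fold change of 1.30 in the deeper libraries (edgeR quasi-likelihood, Benjamini-Hochberg adjusted p = 0.00170) and 2.16 in the shallower ones. MYC had 0.89 in the deeper and 1.99 in the shallower libraries. ZEB2 had 1.35 and 1.85, whereas ETS1 had 1.40 and 1.11. The direction was thus the same at both depths for these 4 genes, but in the deeper libraries none of the 8 factors passed the fold threshold. TWIST1, ZEB2, ETS1 and MYC passed the adjusted p at each depth, and MYCN missed it at both (0.127 and 0.108, edgeR quasi-likelihood, Benjamini-Hochberg). The difference between depths was not tested, nor was the part of depth in these results.

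**Figure D3:**
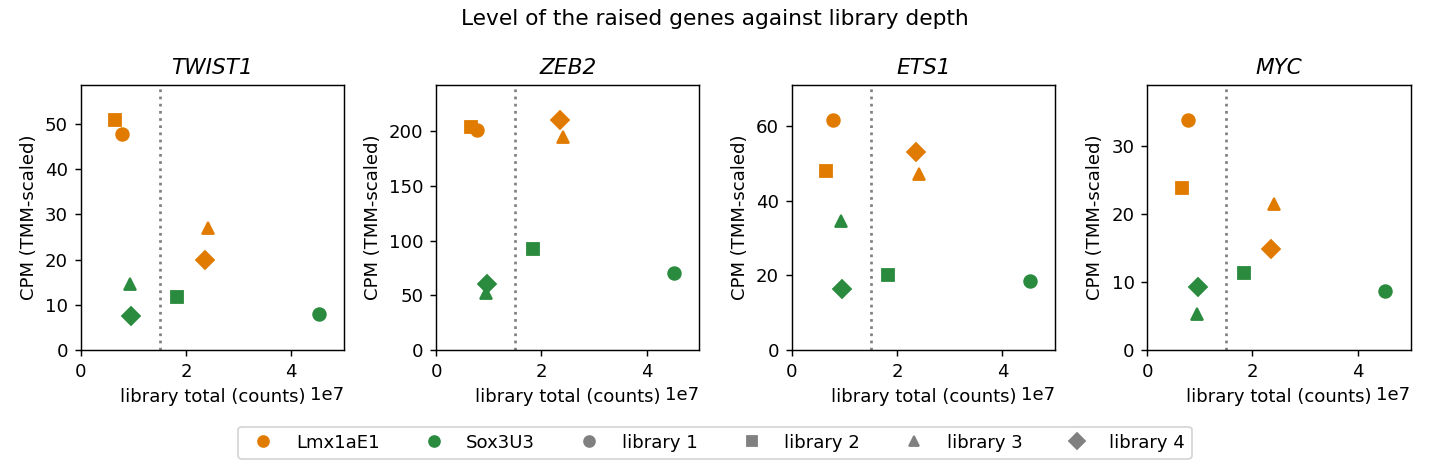
Level in CPM (vertical axis, from 0) of TWIST1, ZEB2, ETS1 and MYC against the library total in counts (horizontal axis), with Lmx1aE1 libraries in orange and Sox3U3 libraries in green. The dotted line is the split between the shallower and deeper libraries. TWIST1 and MYC in Lmx1aE1 are higher in the 2 shallower libraries, and ZEB2 in Lmx1aE1 is level across depth.

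Related genes were set against each other within each library, where scaling cancels, as the log2 ratio of their counts. Since gene length enters such a ratio, only its change between groups was read. The ratio of ZEB2 to ZEB1 was 1.77, 1.92, 1.94 and 2.10 in Lmx1aE1 libraries 1 to 4 and 0.91, 0.91, 0.31 and 0.42 in Sox3U3 libraries 1 to 4. The paralogues had therefore changed unequally, with a gap between the groups that no library crossed. The mean difference was 1.30 (two-sided exact permutation p = 0.0286, adjusted p = 0.0381 over the 4 pairs compared).

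The ratio of TWIST1 to TWIST2, a bHLH paralogue of dermal and skeletal mesenchyme, was 3.44, 2.92, 1.91 and 2.37 in Lmx1aE1 libraries 1 to 4 and 0.66, 0.71, 1.57 and -0.21 in Sox3U3 libraries 1 to 4. Its mean difference was 1.97 (two-sided exact permutation test, adjusted p = 0.0381). TWIST2 itself was low in both groups, at 5.50 ± 1.67 and 6.43 ± 1.89 CPM (SD, n = 4 each). ETS1 to ETS2 was 2.15, 1.703, 1.704 and 0.83 in Lmx1aE1 and -0.13, 0.24, 0.74 and -0.30 in Sox3U3, a mean difference of 1.46 (two-sided exact permutation test, adjusted p = 0.0381). Lmx1aE1 library 4 came within reach of Sox3U3 library 3 in this ratio. MYCN to MYC ran from -0.86 to -0.12 in Lmx1aE1 and from -0.16 to 1.19 in Sox3U3. These ranges met, and the mean difference of -0.79 did not pass (two-sided exact permutation test, adjusted p = 0.0571).

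**Figure D4:**
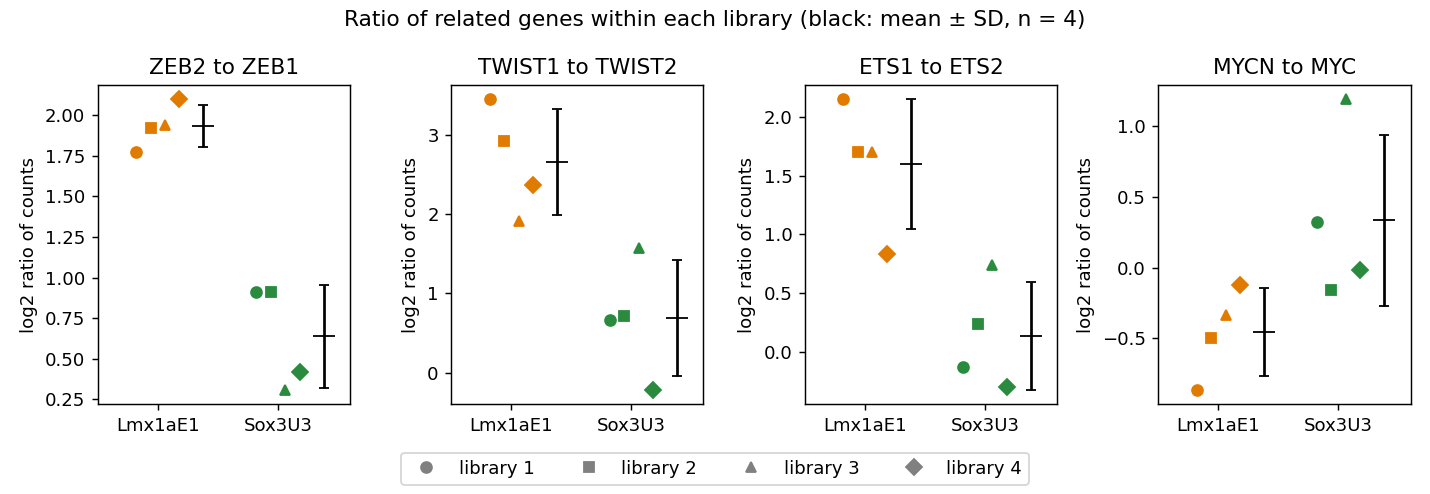
Log2 ratio of the counts of related genes within each library (vertical axes, which do not start at 0), for ZEB2 to ZEB1, TWIST1 to TWIST2, ETS1 to ETS2 and MYCN to MYC, with symbols for library number and black bars for mean ± SD. The groups are apart in the first 3 pairs and overlap in MYCN to MYC.

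Among the families of the factors, ETS genes were called in both directions. Of 18 ETS genes tested, 3 were higher in Lmx1aE1 at the adjusted p (ETS1, GABPA at a log2 fold change of 0.44 and ELF2 at 0.41) and 3 were past both thresholds in the direction of Sox3U3, beside 12.1% and 2.47% of all genes. Without ETS1 it was 2 of 17 in Lmx1aE1, a share near that of all genes. Those 3 were FEV (-2.22) and the epithelial ETS factors ELF3 (-2.12) and EHF (-2.25), with ELF3 at 4.95 ± 0.90 CPM in Lmx1aE1 and 21.4 ± 7.04 in Sox3U3 (SD, n = 4 each). The family's median was -0.01. ERG and FLI1, ETS genes of endothelium, were at 0.06 each.

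In the TWIST and related bHLH group, 7 genes were tested. Beside TWIST1, HAND1, a factor of heart and lateral mesoderm, was past both thresholds in the opposite direction (-2.84), at only 0.23 ± 0.23 CPM in Lmx1aE1 and 1.97 ± 0.75 in Sox3U3 (SD, n = 4 each). That made 1 of 7 in each direction, beside 0.712% of all genes towards Lmx1aE1 and 2.47% towards Sox3U3. Without TWIST1 it was 0 of 6 in Lmx1aE1. Of the partners and inhibitors that set TWIST1 dimers, 2 of 6 were higher in Lmx1aE1 at the adjusted p, ID2 (0.44) and ID4 (1.22), which bind bHLH partners without binding DNA, beside 12.1% of all genes. The abundant E proteins TCF3 and TCF12, with which TWIST1 dimerizes, had values of 0.16 (361.5 ± 27.8 against 324 ± 46.9 CPM) and 0.20 (621 ± 46.5 against 540.5 ± 119 CPM) and did not pass. Over these 6 genes the median log2 fold change was 0.32, and it was 0.19 without Sox3U3 library 4. Over the 7 TWIST-related genes the median of 0.038 had no firm sign or size, since it ran from 0.0011 to 0.36 with each library left out in turn and was -0.026 when scaled by library totals alone.

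In the MYC network, 4 of 11 genes were higher in Lmx1aE1 at the adjusted p, namely MYC, MYCN, MYCL and MGA, and 1 was higher in Sox3U3, the MYC antagonist MXD4 (-0.72). Without MYC and MYCN it was 2 of 9 in Lmx1aE1, beside 12.1% of all genes in that direction. The 1 of 11 in Sox3U3 was near the 11.3% of all genes called in that direction. MYCL, the third MYC paralogue, stood at a log2 fold change of 1.03 (35.4 ± 5.66 against 17.3 ± 3.75 CPM, SD, n = 4 each). MGA, a MAX partner that represses, was at 0.47, and the abundant MLX, at 0.16, did not pass. The median of the 11 was 0.16. TGIF2, the paralogue of TGIF1, was at 0.19 and did not pass.

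Among the corepressors that SNAI and ZEB proteins recruit, most were not called. Of 15 tested, 3 were higher in Lmx1aE1 at the adjusted p, beside 12.1% of all genes. They were the ZEB partners CTBP1 (0.44) and CTBP2 (0.58) and the chromatin remodelling subunit MTA2 (0.63). In Sox3U3, 2 were higher, the deacetylase HDAC1 (-0.59) and MTA3 (-0.46), a share near the 11.3% of all genes. The abundant RBBP4 (-0.10) and HDAC2 (0.035), shared by several repressor complexes, did not pass. The median was 0.06. Among 11 SMAD and TGF-beta genes, 4 were higher in Sox3U3 (the receptors TGFBR1, -0.68, and TGFBR3, -0.94, with SMAD1, -0.57, and the SMAD repressor SKIL, -0.60) and 1 in Lmx1aE1 (SMAD5, 0.37), beside 11.3% and 12.1% of all genes. Their median was -0.14.

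Epithelial genes that fall during EMT were lower in the Lmx1aE1-EGFP+ cells. Of 23 tested, 13 were past both thresholds and 21 past the adjusted p, every one of the 21 higher in Sox3U3, with a median log2 fold change of -1.61. CDH1, the classical target of SNAI and ZEB repressors, was at 22.5 ± 3.27 CPM in Lmx1aE1 and 101 ± 11.7 in Sox3U3 (SD, n = 4 each), or -2.16 (SE 0.14) as a log2 fold change. The others past both thresholds were the adhesion and tight junction genes EPCAM (-2.21), CLDN1 (-2.32), OCLN (-1.998) and CGN (-1.58), the desmosomal DSP (-2.18) and PKP2 (-1.61), the keratins KRT18 (-2.57) and KRT19 (-2.01), the epithelial splicing regulators ESRP1 (-2.17) and ESRP2 (-1.97), the repressor of mesenchymal fate OVOL2 (-1.75) and the protease ST14 (-1.73). TJP1 (-0.21) and PKP1 (-0.80) did not pass. Over all genes tested, 2.47% were past both thresholds and 11.3% past the adjusted p in that direction. Across leaving out each library and within each depth class, between 10 and 13 were past both and between 17 and 21 past the adjusted p.

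Genes of mesenchyme and delamination did not move as a block. Of 33 tested, 16 were higher in Lmx1aE1 at the adjusted p, 6 in Sox3U3 and 11 in neither, with a median of 0.30, beside 12.1% and 11.3% of all genes in the respective directions. CDH7 (1.89), a cadherin of migrating crest in the chick, and the protease inhibitor TIMP2 (2.33) were past both thresholds in Lmx1aE1, and the matrix protease MMP9 (-2.83) in Sox3U3. That made 2 of 33 towards Lmx1aE1 and 1 of 33 towards Sox3U3, beside 0.712% and 2.47% of all genes. The share towards Sox3U3 was thus near that of all genes. CDH6 (1.21), a cadherin of crest delamination in the chick, CDH11 (0.94), the matrix protein TNC (1.47), the integrin ITGA4 (1.16) and the GTPase RHOB (0.68) of crest delamination were higher in Lmx1aE1 at the adjusted p. Against the list's name, CDH2 (-0.86), FN1 (-0.84), MMP2 (-0.95), LOXL2 (-0.62) and ADAM19 (-1.42) were higher in Sox3U3, and the abundant VIM (986 ± 41.6 against 1095 ± 137 CPM), RHOA and SPARC did not pass. The number past both thresholds in Lmx1aE1 was 5 without Lmx1aE1 library 4 and 4 without Sox3U3 library 3, and in Sox3U3 it was 2 without each of these.

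**Figure D5:**
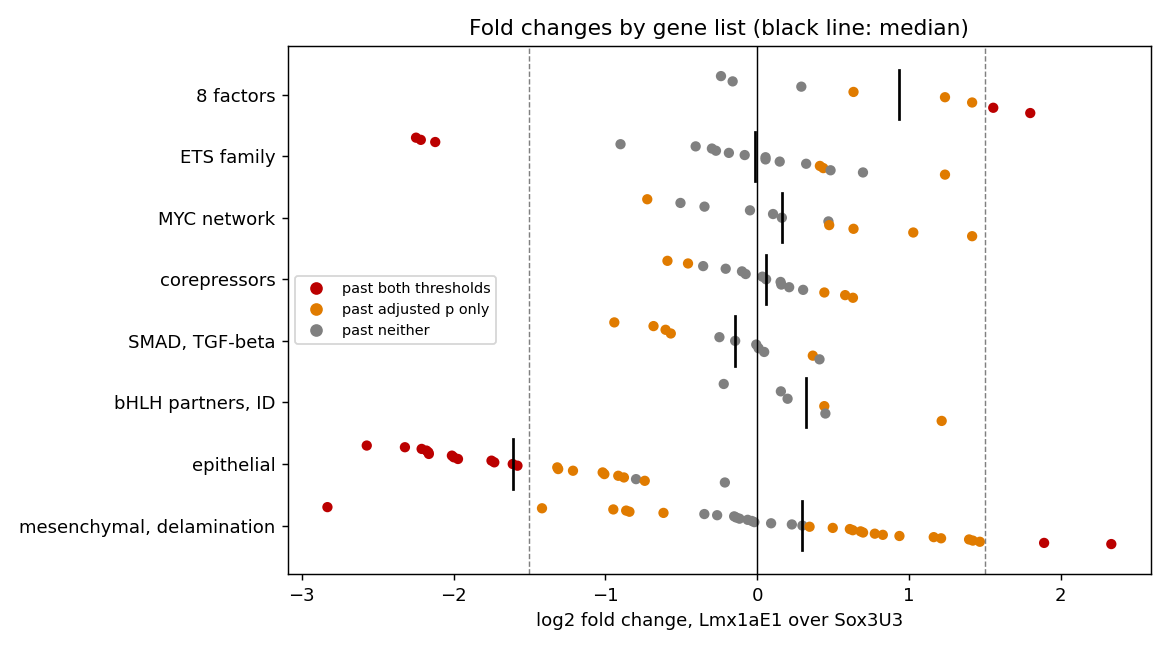
Log2 fold change, Lmx1aE1 over Sox3U3 (horizontal axis), of each tested gene in the 8 factors and in the lists around them, with the median of each list as a black line and dashed lines at the fold threshold. The epithelial genes lie left of 0 (median -1.61), and the other lists have genes on both sides.

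Markers of mesenchyme, endothelium and blood were set beside the factors. TWIST1 is also made by paraxial mesoderm and head mesenchyme, and ETS1 by endothelium and blood. Some mesenchyme genes, among them PRRX1, PRRX2, FOXC2, COL1A2 and COL3A1, also stood in the list of mesenchyme and delamination above. The mesenchyme list therefore does not set other sources apart from crest. The 14 mesenchyme genes summed to between 799.7 and 934 CPM in Lmx1aE1 and between 592 and 1168 in Sox3U3, ranges that overlapped, and COL1A2 was at 619 ± 71.9 and 626.5 ± 179 CPM (SD, n = 4 each). At the adjusted p, 3 of the 11 tested were higher in Lmx1aE1 (PRRX1, 0.78, PRRX2, 1.42, and PDGFRA, 0.87) and none in Sox3U3. Over all genes tested, 12.1% passed in the direction of Lmx1aE1 and 11.3% in that of Sox3U3. TCF15 of paraxial mesoderm (1.46, 8.80 ± 7.14 against 3.11 ± 2.32 CPM, SD, n = 4 each), MEOX2 (0.31), MEOX1 (-0.20) and FOXC2 (-0.14) did not pass. The 12 endothelial genes summed to between 138 and 245 CPM in Lmx1aE1 and between 183 and 327 in Sox3U3. Of the 11 tested, 2 passed, KDR (-1.31) and EGFL7 (-0.95), both higher in Sox3U3, beside 11.3% of all genes. The 8 blood genes summed to between 92.0 and 812 CPM in Lmx1aE1 and between 76.5 and 371 in Sox3U3. HBBA, below the filter, was at 0 in every Sox3U3 library and at only 0.12 ± 0.15 CPM in Lmx1aE1 (SD, n = 4). No gene of the 6 tested was past the adjusted p (0 at an unadjusted p below 0.05 too, with edgeR, DESeq2 and limma-voom). The part of these cells in the levels of the factors was not tested.

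The genes whose profile over the 8 libraries lay nearest to each called factor were found by the root mean square distance between log2 CPM values, each centred on its own mean, among 7646 genes with a mean of at least 10 CPM. For TWIST1 they were GNG4 (0.31), a G protein subunit, the secreted WNT antagonist SFRP1 (0.32), the retinoic acid binding protein CRABP-I (0.33), CALCB (0.34) and the collagen gene COL1A1 (0.35). For ZEB2 they were SASH1 (0.17), the secreted WNT and axon guidance inhibitor DRAXIN (0.19), the fatty acid carrier FABP5 (0.20), the RNA-binding SAMD4A (0.20) and the calcium sensor NCALD (0.20). These distances describe 8 libraries in 2 groups and were not tested. Since the values were centred and not scaled, a difference in fold change between 2 genes by itself adds to their distance. Among the factors themselves the smallest distance was between SNAI1 and TGIF1 (0.11), then between ZEB1 and MYCN (0.26), and ZEB2 was nearer to MYC (0.35) than to ZEB1 (0.68). TWIST1 was nearest to ETS1 (0.47).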

How the data were processed

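Libraries from sorted EGFP+ cells were sequenced, and the authors aligned trimmed reads with STAR in a standard RNA-seq pipeline. Their notes name Trim Galore, featureCounts and the build galGal6. The deposited values are raw counts per gene, with replicates kept apart. Whether counting used strand was not given in the sources used here, so genes and overlapping antisense transcripts cannot be told apart. The 8 factors and all gene lists were chosen with earlier results of these data known.

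Counts were filtered with filterByExpr, scaled by TMM and tested in R 4.3.3 with edgeR 4.0.16 (quasi-likelihood) on 16861 genes, 4 against 4 libraries, with Benjamini-Hochberg adjustment over all of them (adjusted p under 0.05, absolute log2 fold change over 1.5). Library totals ran from 6559872 to 45183366, and the common biological coefficient of variation was 0.225. No pair of libraries agreed within sampling noise, as the smallest chi-square per degree of freedom over 28 pairs was 3.60. Single levels and ratios of counts (each plus 0.5) were tested by exact permutation over libraries. The edgeR fit was checked on simulated counts. All 8 factors are named. From each list the text names the members past both thresholds, otherwise 2 to 4 abundant members, and members that went against their list. Further genes, those past the adjusted p alone (among them TNC, CDH6, CDH11, ITGA4 and RHOB) or named as not passing (such as TCF15 and MEOX1), were chosen after their values were seen.

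Alternatives were DESeq2 1.42.0, limma-voom (limma 3.58.1), scaling by RLE or by totals alone, tests without a filter or with 10 counts required in each library, a replicate block, thinning to the smallest total, libraries above or below 15000000 counts, other fold thresholds and leaving out each library. Counts in the epithelial, mesenchymal and neural crest lists by library and depth, and marker sums without SOX10, were added after seeing the data. Coordinates and sequences were not used here.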

Additional observations from a re-analysis of the deposited data

How the results depend on the processing

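No fold change of the 8 factors changed sign under any of the 18 alternatives run for each. The count past both thresholds in Lmx1aE1 was 2, and it was 0 in the deeper libraries alone, 0 when the fold threshold itself was tested and 4 at a log2 threshold of 1. It was 3, with MYC added, in the shallower libraries, without Lmx1aE1 library 4 and without Sox3U3 library 2. Without Sox3U3 library 3 it stayed at 2, with ETS1 past both and ZEB2 inside the fold threshold. With a replicate block it was 2, and 5 at the adjusted p alone, with log2 fold changes of 1.77 for TWIST1, 1.59 for ZEB2 and 1.28 for ETS1. Over all genes, those past both towards Lmx1aE1 were 120 of 16861 in the main fit and 121 of 18901 in the deeper libraries. They were 198 of 15649 in the shallower ones, 133 of 16014 without Lmx1aE1 library 4 and 143 of 15857 without Sox3U3 library 2. Without Sox3U3 library 3 they were 143 of 18262, and with the block 122 of 16861. The replicate numbers were not treated as pairs in the main fit. The deviations of same-numbered libraries from their group means had correlations of -0.11, -0.23, 0.046 and -0.16. The largest between any Lmx1aE1 and Sox3U3 library was 0.31, for Lmx1aE1 library 4 and Sox3U3 library 2. Such correlations cannot show whether same-numbered libraries were handled together. Leaving out each library in turn, the ratio differences ran from 1.19 to 1.39 (ZEB2 to ZEB1), 1.68 to 2.27 (TWIST1 to TWIST2), 1.27 to 1.71 (ETS1 to ETS2) and -0.95 to -0.50 (MYCN to MYC). Their exact permutation adjusted p then rose to at most 0.0762 in the first 3 pairs, and for MYCN to MYC it was 0.0381 without Sox3U3 library 2. With a library left out the test has fewer splits to draw on, so a higher p need not mean a weaker change. The ETS1 to ETS2 difference was larger without Sox3U3 library 3, at 1.66, although its adjusted p by that test was 0.0762. List medians ran from -0.073 to 0.086 (ETS family, also -0.075 with library size only), 0.0011 to 0.36 (TWIST-related bHLH, also -0.026 with library size only), 0.19 to 0.36 (TWIST1 partners and ID genes), 0.012 to 0.10 (corepressors), 0.11 to 0.30 (MYC network), -0.24 to -0.088 (SMAD and TGF-beta), -1.80 to -1.44 (epithelial), 0.29 to 0.38 (mesenchymal), -0.12 to 0.59 (mesenchyme and paraxial mesoderm, 0.59 without Sox3U3 library 2), -0.82 to -0.20 (endothelium, -0.82 without Lmx1aE1 library 4) and 0.33 to 0.69 (otic vesicle). The blood median ran from -0.13 to 2.05 and so had no firm sign. The cause of these changes was not tested. Fits within a depth class rest on 2 libraries a group, and p-values measure the spread between these libraries.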
